A study of Mus musculus with 4 samples.

Results

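Mature neutrophils with low chemokine transcripts were taken from single-cell RNA sequencing of sorted CD45+ cells (leukocytes) of the spinal cord of C57BL/6 mice. All mice had EAE (experimental autoimmune encephalomyelitis), a disease with features of multiple sclerosis that is induced by immunisation. Cells were kept if they held 500 or more UMIs (unique transcript counts) from 200 or more genes, with mitochondrial genes giving no more than 10% of the UMIs. The members were the kept cells in which S100a8 and S100a9 together held at least 10% of the UMIs. In addition, Ltf, Camp and Ngp together held under 1% of the UMIs, Elane, Mpo, Prtn3 and Ctsg together gave under 10 UMIs, and Cxcl2, Ccl3 and Ccl4 together gave under 10 UMIs. This rule gave 1126 members among the 28598 cells kept from 29379 barcodes. The 4 libraries fell into 2 groups: 2 libraries (Ctrl 1 and Ctrl 2) from EAE mice given Ctrl MO, and 2 libraries (Reg1-MO 1 and Reg1-MO 2) from EAE mice given Reg1-MOs. Both agents were given intracranially on day 9 after immunisation, and the spinal cords were taken on day 16. The labels spell out neither name: MO was taken to mean morpholino, an antisense oligomer, and Reg1 to mean Regnase-1, an endoribonuclease that cleaves mRNAs of inflammatory genes and is the product of Zc3h12a. The labels do not give the age or sex of the mice, or whether a library is 1 animal or a pool, so a p-value measures the spread between these libraries, which may be technical. No untreated or unimmunised mice were among the samples. Before the sort the tissue was digested and spun through Percoll, and the labels call the product mononuclear cells, although neutrophils are polymorphonuclear.

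Neutrophils are short-lived granulocytes made in the bone marrow that enter the inflamed spinal cord in EAE. As they mature they stop dividing and switch in turn from genes of primary granules (Elane, Mpo) to secondary granules (Ltf, Camp, Ngp) and then to genes of the circulating cell, such as Retnlg, Mmp8 and Cxcr2, the receptor for neutrophil-attracting chemokines. Mature cells that are stimulated in tissue transcribe chemokines such as Cxcl2 and Ccl3. The members are the mature cells in which those chemokine transcripts were scarce.

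The libraries held 75472324 to 174552218 UMIs in all, and the kept cells had medians of 9947.5 to 12103 UMIs. The members were shallower, with medians of 4450 and 4650.5 UMIs per cell in Ctrl 1 and Ctrl 2 and 3529 and 4224 in Reg1-MO 1 and Reg1-MO 2. They numbered 322, 520, 83 and 201 in that order, so Reg1-MO 1 rests on the fewest cells. No member barcode occurred in more than 1 library, while 10 to 75 kept barcodes were shared by a pair of libraries. A doublet caller marked 27 members (2.40%), which were kept. Reg1-MO 2 stood apart in Xist, the RNA that coats the inactive X chromosome of female cells. Its normalised level in members was 11.9 CPM (UMIs of a gene over all member UMIs of the library, on the usual CPM scale and after TMM normalisation) against 128, 129 and 122 CPM in Ctrl 1, Ctrl 2 and Reg1-MO 1. The part of this difference in the results was not tested, and the count of changed genes in members is also given without each library.

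The markers fitted the label. Retnlg, which encodes a resistin-like secreted protein, was at 42389.6, 40048, 34468 and 35075 CPM (before TMM scaling) in the members of Ctrl 1, Ctrl 2, Reg1-MO 1 and Reg1-MO 2. All members that held 1000 UMIs or more had a Retnlg UMI after thinning to 1000 UMIs per cell. Cxcr2 was found in 45.9%, 53.3%, 52.6% and 56.6% of thinned members, and Mmp8, a collagenase stored in granules, in 95.3%, 97.9%, 83.3% and 80.1%. The same shares in T-marked cells (cells outside the S100a8/S100a9-high cells with a Cd3e or Trac UMI), given for comparison, were 0.338% to 1.22% for Cxcr2 and 1.31% to 6.17% for Mmp8. The members' marker shares were far above those of T-marked cells in every library. In thinned cells that met every limit except the one on chemokines, Cxcr2 was found in 53.2%, 51.9%, 47.5% and 56.2%. Mmp8 was found there in 92.4%, 96.8%, 80.5% and 75.1%, so these markers did not separate the members from those cells. T-marked cells also carried myeloid transcripts: their macrophage markers summed to 5003 to 10741 CPM and their MHC class II genes to 3525 to 13484 CPM, against 2799 to 4529 CPM for T cell markers. For genes that macrophages or monocytes express, their share is therefore no measure of free RNA, and the level of free RNA in members was not measured. T-marked cells were deeper before thinning, with medians of 7417.5 to 8384.5 UMIs, and 6, 8, 5 and 5 members under 1000 UMIs were left out of the thinned values. The limits fell within a continuous range: 32 cells lay between 9% and 10% S100a8 and S100a9 UMIs with every other limit met, and 37 between 10% and 11%. Likewise 130 members had 8 or 9 UMIs of the 3 chemokines, and 112 cells just outside had 10 or 11.

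Relative to all cells outside the S100a8/S100a9-high population, the genes that stood out most in the members were, after Retnlg, Cstdc4, Stfa2l1, Ly6g, Mmp9, Dhrs9, Rdh12, Scrg1, Asprv1, Cxcr2, Padi4, Rnf144a, Pglyrp1, Mmp8 and Ankrd33b. Ly6g, the surface antigen used to identify mouse neutrophils, was at 597, 547, 541 and 768 CPM in members against 18.9, 20.3, 3.68 and 9.70 CPM in those other cells. Padi4, the enzyme that citrullinates histones, was at 336, 328, 303 and 284 CPM against 11.8, 17.6, 3.20 and 5.23. Pglyrp1, a peptidoglycan-binding granule protein, was at 2562, 2338, 2498 and 2382 CPM. These differences describe cells chosen by their transcripts and carry no test. Cstdc4 and Stfa2l1 belong to the stefin A cluster of closely related cysteine protease inhibitor genes, for which reads may be split between copies, so their single values are uncertain.

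Among the S100a8/S100a9-high cells, 1174 passed every other limit but had 10 or more UMIs of Cxcl2, Ccl3 and Ccl4, and are called chemokine-high here. A further 2710 were granule-rich cells (1% or more of UMIs from Ltf, Camp and Ngp) and 166 were primary-granule cells (10 or more UMIs of Elane, Mpo, Prtn3 and Ctsg). The members were separated from the granule-rich cells by genes that the rule did not use. Ccl6, a constitutively made chemokine, was at 2121, 1889, 2661 and 2069 CPM in members and at 162, 130.4, 132 and 112 CPM in granule-rich cells. Clec4d, a C-type lectin receptor, was at 766, 913, 874 and 1003 CPM against 99.1, 112, 101 and 131. In the opposite direction, the mitotic gene Top2a was at 2.57, 3.14, 9.78 and 0 CPM in members and at 202, 163, 219 and 157 CPM in granule-rich cells, with Ube2c, Stmn1, Pclaf, Mki67 and H2afx placed likewise. The 14 genes of the cell cycle list, 4 of which could be tested, summed to 1343, 1229, 1373 and 1098 CPM in members and 2994, 2595, 2739.8 and 2944 CPM in T-marked cells. Mki67, Top2a, Stmn1, Pclaf and Ube2c, which could not be tested, were each at 9.78 CPM or less in members. The sum in members thus came almost wholly from other genes of the list. The members differed much less from the chemokine-high cells. Ranked by the smallest ratio over the libraries, Adpgk, an ADP-dependent glucokinase, came first with ratios of only 1.27 to 1.38 in favour of the members. Mettl9 (1.23 to 1.31), Padi4 (1.20 to 1.38) and Cd300lb (1.19 to 1.83) came next. Genes higher in the chemokine-high cells included Nfkbia, the NF-kB inhibitor induced by NF-kB itself, at 748, 722, 1091 and 923 CPM against 189.7, 221, 359 and 286 CPM in members. Ccrl2, Acod1, Ctss, Ctsb, Ier3, N4bp1 and Tnfaip3 were placed likewise. Chemokine-high cells were slightly deeper (medians of 4863, 4781, 4042 and 4742 UMIs), and a limit set in UMIs sorts deeper cells into that class.

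Members varied among themselves beyond counting noise in a small set of abundant genes. Of 554 genes with a mean of at least 0.2 UMI per thinned member in every library, the median of the lowest Fano factor over libraries (variance over mean, near 1 for counting noise) was 1.01. The value was 7.04 for Cstdc4, 6.40 for Retnlg, 3.79 for Wfdc17, 3.65 for Il1b, which encodes interleukin-1 beta, 3.51 for Ifitm1 and 3.31 for Stfa2l1. S100a6, Actb, Fth1, Ifitm6, Lcn2 and Ccl6 were also among the 15 most variable genes, beside S100a8, S100a9 and Ngp, which the rule used. Over the thinned members of a library, Pearson's r between Il1b and S100a8 was -0.35 to -0.48, and between Wfdc17 and Ifitm1 0.31 to 0.49. The residual secondary granule gene Ngp went with Ifitm6 (r of 0.32 to 0.49) and against Il1b (r of -0.26 to -0.41). Within the limits of the rule, cells with more Il1b tended to hold fewer S100a8 and Ngp UMIs in each library. The rule chose the members by S100a8 and Ngp, so the spread and correlations of these genes are shaped by that choice. These correlations are over 316, 512, 78 and 196 cells that share a library and a fixed number of UMIs, so that a high share of one gene lowers that of all others.

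The first comparison asked whether members made up another share of the cells after Reg1-MOs. They were 3.98% (95% Wilson interval 3.58% to 4.43%) and 7.84% (7.22% to 8.51%) of the kept cells in Ctrl 1 and Ctrl 2, and 0.952% (0.769% to 1.18%) and 3.89% (3.39% to 4.45%) in Reg1-MO 1 and Reg1-MO 2. The intervals cover counting error only. Both treated libraries lay below both controls, but Reg1-MO 2 and Ctrl 1 differed by less than their counting error. The order was lost when S100a8 and S100a9 had to reach 20% (2.19% in Ctrl 1 and 2.59% in Reg1-MO 2) and without members rich in other cell types' markers (3.04% and 3.36%), with an exact permutation p of 0.667 in both. The means were 5.91% ± 2.73 (SD, n = 2) and 2.42% ± 2.08 (SD, n = 2). The exact permutation p (two-sided) was 0.3333, the smallest that 2 against 2 libraries can give, so no p under 0.05 could be had. The difference of -3.49 percentage points between the means was -1.56 without Ctrl 2 and -2.02 without Reg1-MO 1.

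All S100a8/S100a9-high cells together were 21.7% and 31.9% of the kept cells in the controls and 4.52% and 17.7% in the treated libraries. Within them the share of members was 18.4% (16.6% to 20.3%), 24.6% (22.8% to 26.4%), 21.1% (17.3% to 25.4%) and 22.0% (19.4% to 24.8%), with overlapping groups. The group means were 21.5% ± 4.36 and 21.5% ± 0.671 (SD, n = 2 each), and the exact permutation p was 1. Chemokine-high cells were 25.7%, 17.6%, 29.9% and 25.5% of the same cells, and granule-rich cells 51.6%, 54.6%, 47.0% and 51.0%. Primary-granule cells were 4.34%, 3.26%, 2.03% and 1.42%. The shares of granule-rich and of primary-granule cells were lower in both treated libraries, and that of chemokine-high cells overlapped. For granule-rich cells the exact permutation p was 0.3333, again the smallest that the design allows. The share among all cells also depends on how many other leukocytes a sort delivered, which cannot be told apart from the number of neutrophils in the tissue.

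**Figure D1:**
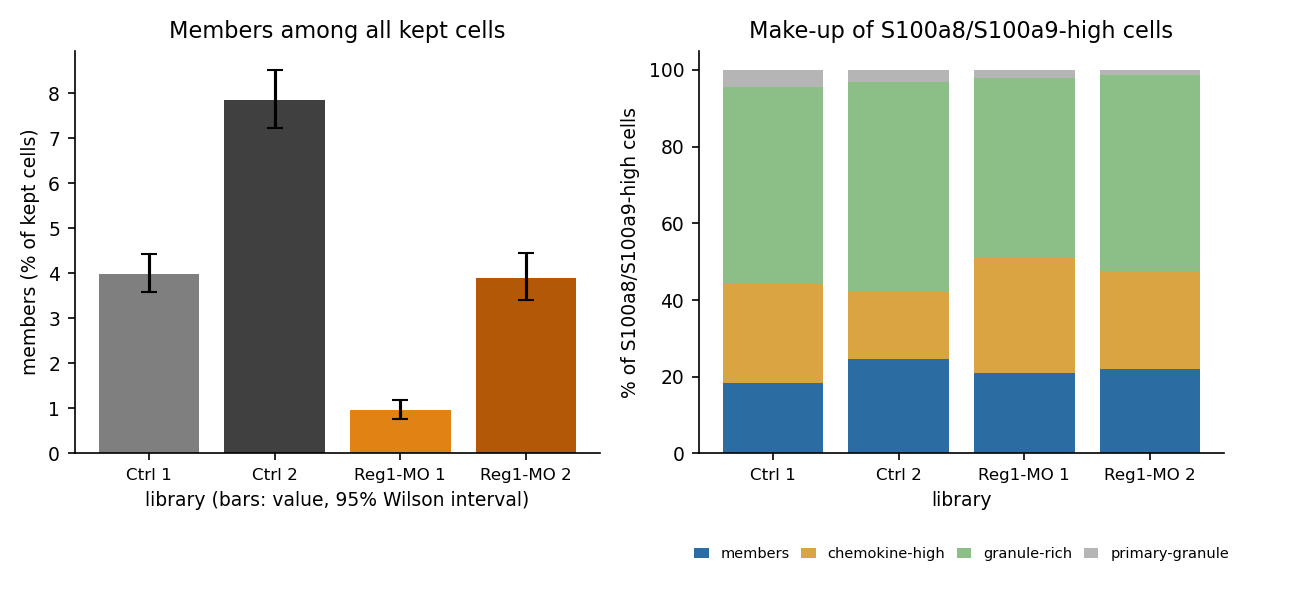
Members in each library. Left, members as a percentage of all kept cells, with bars for the 95% Wilson interval: Reg1-MO 1 is lowest at 0.952% and Ctrl 2 highest at 7.84%. Right, the make-up of the S100a8/S100a9-high cells in percent, where members hold 18.4% to 24.6% in all 4 libraries.

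The second comparison asked which genes differed in the members between Reg1-MO and Ctrl. UMIs were summed over the members of each library, and 6095 genes entered the edgeR quasi-likelihood test. It called 25 genes (0.41%) at a Benjamini-Hochberg adjusted p under 0.05, 15 higher (0.246%) and 10 lower (0.164%) after Reg1-MOs, while 682 had an unadjusted p under 0.05. The called genes that were lower were led by Chil3, F13a1, Pik3ip1 and Prnp. Those that were higher included Slc7a11, Il1rn, Trps1, Ier3, Creg1 and Basp1 and also Cxcl9 and MHC class II genes, of which single cells gave large shares in Reg1-MO 2. The median log2 fold change of all tested genes was -0.01, and 49.1% of them lay above zero. The groups did not overlap in 41.7% of all tested genes. Most called genes described below were named on condition that their groups did not overlap. The number of calls moved strongly with the limits of the rule: it was 0 when the 3 chemokines were limited to under 0.2% of UMIs in place of under 10 UMIs, and 1 gene (F13a1) was called when S100a8 and S100a9 at 5% of UMIs sufficed. It was 63 at 20%, 150 without Ctrl 1, 62 without Ctrl 2, 346 without Reg1-MO 1 and 38 without Reg1-MO 2.

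**Figure D2:**
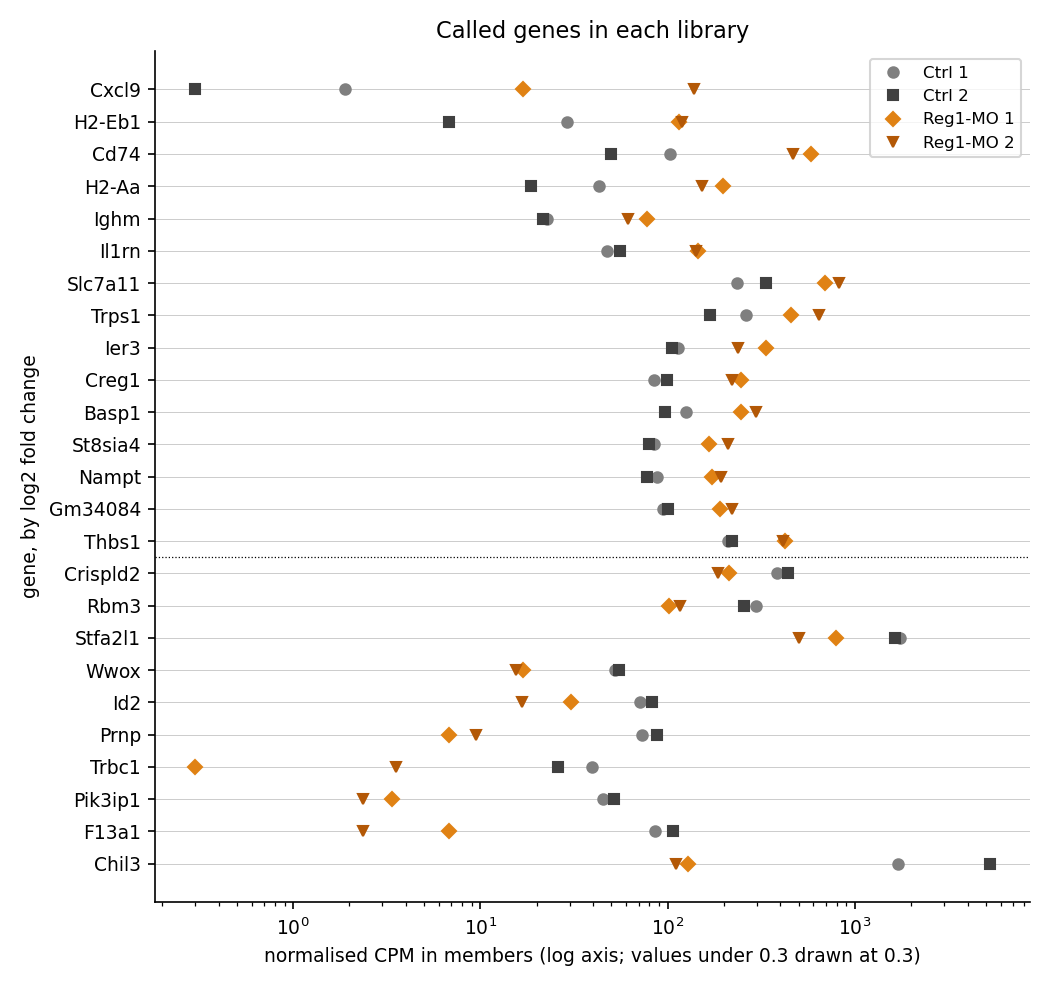
Normalised CPM in the members of each library (log axis) for the 25 called genes, ordered by log2 fold change, with a dotted line between higher and lower genes. The 2 treated libraries lie on one side of the 2 controls for each gene, as for Chil3 at 129 and 110.3 CPM against 1701 and 5268. For most of them this was a condition of being named.

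Chil3, which encodes a secreted chitinase-like protein made by myeloid cells (Ym1), had the lowest fitted log2 fold change of the called genes. It was at 1701 and 5268 CPM in the controls and at 129 and 110.3 CPM in the treated libraries. Both treated libraries were far below either control, and the controls themselves were far apart. On the log2 scale the change was -4.89 ± 0.48 (the error here and below is the SE; adjusted p 0.00306). It was -5.49 without Ctrl 1 and -3.86 without Ctrl 2, and -2.14 (adjusted p 0.538) with chemokines limited to under 0.2% of UMIs. The transcript was widespread in control members: 281 of 322 and 516 of 520 cells had a UMI, against 22 of 83 and 37 of 201 treated cells. After thinning, the shares were 57.6%, 93.8%, 11.5% and 5.10% of members, against 19.7%, 19.4%, 10.5% and 3.92% of T-marked cells. The control members were well above the T-marked cells of their libraries, and the treated members were close to theirs. Chil3 was lower in T-marked cells of the treated libraries too, at 2227, 2799, 613 and 229 CPM. The part of free RNA in the fold change was not tested. The gene lies on chromosome 3 of GRCm38 from 106147554 to 106167564, on the minus strand.

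Stfa2l1, on chromosome 16 from 36156811 to 36161953, encodes a stefin A-like cysteine protease inhibitor. It was at 1748 and 1647 CPM in the controls and 793 and 505 CPM in the treated libraries. The controls were close to each other and both treated libraries were below them, and the fitted change was -1.41 ± 0.20 on the log2 scale (adjusted p 0.0203). It was found in 47.8%, 44.9%, 32.1% and 18.4% of thinned members and in at most 1.37% of T-marked cells. Of the 6 stefin A genes tested, 0 were above zero, 1 was called and 5 had non-overlapping groups with the treated libraries lower. Over all genes tested the groups did not overlap in 41.7%, 21.5% with the treated libraries lower and 20.2% higher. The median log2 fold change of the 6 stefin A genes was -1.63. Stfa1 was at 538, 409, 298 and 66.4 CPM and Stfa2 at 269, 202, 153 and 11.9 CPM, with neither called. Reg1-MO 2 was much the lowest in these genes, and without it the median of the list was -0.66, while without Reg1-MO 1 it was -3.04. When cells with 10 or more UMIs of other cell types' markers or MHC class II were left out, the change in Stfa2l1 was -1.20 on the log2 scale and just missed the threshold (adjusted p 0.0627).

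Prnp, which encodes the membrane-anchored prion protein, was at 73.4 and 87.8 CPM in the controls and 6.78 and 9.49 CPM in the treated libraries. The groups were far apart, and the fitted change was -3.20 ± 0.35 on the log2 scale (adjusted p 0.00437). Its UMIs were spread over many cells: 93 of 322 and 164 of 520 control members held one, against 2 of 83 and 6 of 201. Pik3ip1, a membrane inhibitor of phosphoinositide 3-kinase signalling, had 71, 136, 1 and 2 UMIs in the 4 libraries. Its summed CPM was 20.4-fold higher in the controls, with a 95% counting interval of 6.87 to 99.5, since 3 UMIs stand for the treated group (adjusted p 0.00543). In T-marked cells Pik3ip1 was at 14.6, 26.1, 8.68 and 11.2 CPM, and the treated members lay below those values while the control members lay above.

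Crispld2, a secreted protein of the cysteine-rich CAP family, was at 384, 438, 214 and 185 CPM. It fell by 1.06 ± 0.18 on the log2 scale (adjusted p 0.0384), and T-marked cells held only 3.31 to 22.4 CPM. Rbm3, a cold-inducible RNA-binding protein, was at 297, 256, 102 and 116 CPM and fell by 1.32 ± 0.19 (adjusted p 0.0203). T-marked cells held more Rbm3 than members, at 988, 868, 549 and 538 CPM, with the treated libraries lower there too. Both genes were low in both treated libraries, with no overlap. Wwox, an oxidoreductase, was at 52.5, 54.9, 16.9 and 15.4 CPM, and Id2, an inhibitor of helix-loop-helix factors, at 70.9, 82.5, 30.5 and 16.6 CPM. Both genes were more abundant in T-marked cells (109 to 172 CPM for Wwox, 410.1 CPM or more for Id2) than in members.

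F13a1, the A subunit of coagulation factor XIII and a monocyte gene, had 135, 282, 2 and 2 UMIs in the members. It was 30.7-fold higher in the controls by summed CPM (95% counting interval 11.9 to 113), with a fitted log2 fold change of -4.73 ± 0.44 (adjusted p 0.00306). The fitted value was -3.83 without Reg1-MO 2 and only -0.40 (adjusted p 0.959) with chemokines limited to under 0.2% of UMIs. The share of thinned members with a UMI was 6.01%, 9.18%, 0% and 0.51%, against 5.72%, 6.48%, 5.63% and 2.48% of T-marked cells, whose monocyte markers summed to 1332 to 1716 CPM. Trbc1, a T cell receptor constant segment outside the rule for named genes and named because it is 1 of the 10, had 62, 69, 0 and 3 UMIs. A single cell gave 35 of the 62 and another 27 of the 69. The control counts thus came largely from few cells, and the fitted log2 fold change of -3.58 was -8.60 without Reg1-MO 2, when the treated group has no UMI, so that it depends on the prior count.

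**Figure D3:**
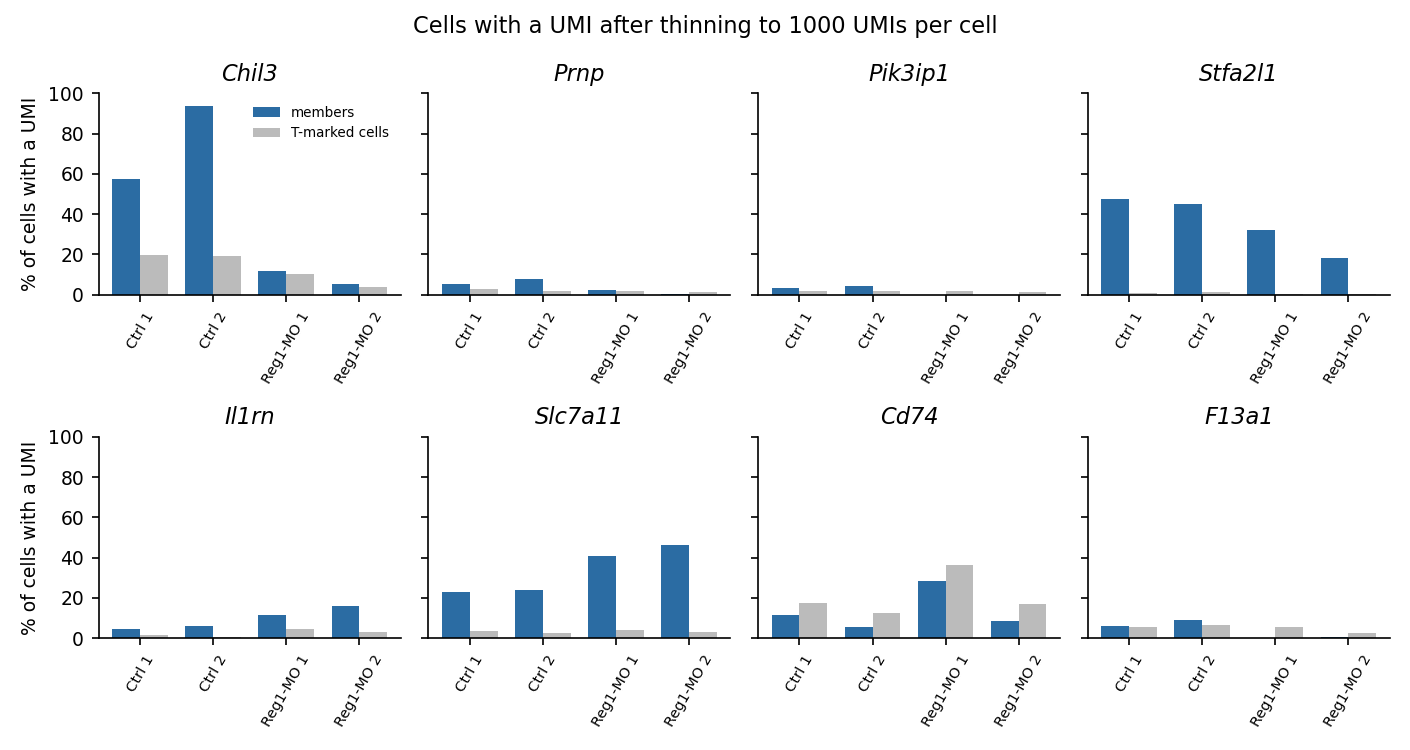
Share of members (blue) and of T-marked cells (grey) with a UMI of 8 called genes, in percent, after thinning each cell to 1000 UMIs. Members exceed T-marked cells for Chil3 in the controls (57.6% and 93.8% against 19.7% and 19.4%) and for Slc7a11 in all 4 libraries, and lie below them for Cd74.

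Among the genes that rose, Slc7a11 had the highest level. It encodes the cystine/glutamate exchanger that supplies cystine for glutathione. It was at 234 and 337 CPM in the controls and at 692 and 826 CPM in the treated libraries, and rose by 1.41 ± 0.20 on the log2 scale (adjusted p 0.0203). Both treated libraries were more than 2 times above either control. It was found in 23.1%, 23.8%, 41.0% and 46.4% of thinned members and in 2.44% to 4.11% of T-marked cells, so the transcript was spread over many members and was more frequent there than in T-marked cells. Slc7a11 lies on chromosome 3 from 49892526 to 50443614.

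Il1rn, the secreted antagonist of the interleukin-1 receptor, lies on chromosome 2 from 24336853 to 24351494. It was at 47.5, 55.6, 146 and 141 CPM and rose by 1.46 ± 0.21 on the log2 scale (adjusted p 0.0203). Both treated libraries were above both controls, and libraries of a group lay close together. Thinned members with a UMI were 4.43%, 6.25%, 11.5% and 15.8%, against 1.82%, 0.457%, 4.64% and 3.17% of T-marked cells, in which the level also was higher after Reg1-MOs (59.9, 19.9, 126 and 91.7 CPM). Il1b, the agonist, was at 1767, 1181, 2231 and 2336 CPM. Its groups did not overlap, as in 41.7% of all genes tested, but its log2 fold change of 0.63 ± 0.19 was not called (adjusted p 0.236). Of the 9 cytokine genes tested, Il1rn alone was called; Tnf, at 22.8, 20.8, 20.3 and 42.7 CPM, overlapped between groups.

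Trps1, a zinc finger repressor, was at 262, 169, 454 and 642 CPM and rose by 1.38 ± 0.24 on the log2 scale (adjusted p 0.0421). Ier3, an immediate early stress response gene, was at 114, 105.2, 336 and 236 CPM and rose by 1.35 ± 0.21 (adjusted p 0.0253). It was the called gene among 13 tested immediate early genes, where Fos stood at 1445, 1211, 1424 and 1311 CPM and Jun at 118, 96.1, 44.1 and 57.0 CPM. Creg1, a lysosomal glycoprotein, was at 84.2, 99.5, 248 and 219.5 CPM, and Basp1, a membrane-associated protein first found in nerve terminals, at 125, 96.5, 248 and 295 CPM. St8sia4, which adds polysialic acid to glycoproteins, was at 84.8, 79.8, 166 and 209 CPM. Nampt, of the NAD salvage pathway, was at 87.95, 77.6, 173 and 193 CPM, and Thbs1, the matrix protein thrombospondin 1, at 211, 220.2, 424 and 415 CPM. Gm34084, an unnamed predicted gene, was at 94.3, 100.6, 190 and 222 CPM. In each of these 8 genes both treated libraries exceeded both controls, and the level was about 2 to 3 times the control level. For Trps1, Ier3, Creg1, Basp1 and St8sia4 the lack of overlap was a condition of being named. Over all genes tested, 20.2% had both treated libraries above both controls. Nampt, Thbs1 and Gm34084 fall outside the rule for named genes and are given because they complete the 15. Without Reg1-MO 2, 18 of the 25 genes were still called, 6 lost the call (St8sia4, Id2, Wwox, Crispld2, Nampt and Gm34084) and Cxcl9 was not tested. Nampt was also lost without Ctrl 2.

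The promoter windows of 4 called genes that many members transcribed are shown because they hold matches to the core of the C/EBP site, the motif of a factor family active in neutrophil development. They are RefSeq windows from 250 bases before to 50 bases after the transcription start on build GRCm38.p6, 5′ to 3′ on the strand of the gene. Capitals mark every match to TTNNGNAA or its reverse complement; matches may overlap. Chil3, chr3:106167515-106167814, minus strand; Stfa2l1, chr16:36156561-36156860, plus strand; Slc7a11, chr3:50443564-50443863, minus strand; Il1rn, chr2:24345121-24345420, plus strand, 1 of 3 windows of this gene.
Chil3: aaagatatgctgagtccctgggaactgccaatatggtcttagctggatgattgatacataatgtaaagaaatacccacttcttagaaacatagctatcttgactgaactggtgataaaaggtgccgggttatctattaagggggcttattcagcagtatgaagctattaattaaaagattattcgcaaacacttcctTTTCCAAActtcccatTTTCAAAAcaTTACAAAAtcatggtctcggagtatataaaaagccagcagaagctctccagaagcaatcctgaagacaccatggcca
Stfa2l1: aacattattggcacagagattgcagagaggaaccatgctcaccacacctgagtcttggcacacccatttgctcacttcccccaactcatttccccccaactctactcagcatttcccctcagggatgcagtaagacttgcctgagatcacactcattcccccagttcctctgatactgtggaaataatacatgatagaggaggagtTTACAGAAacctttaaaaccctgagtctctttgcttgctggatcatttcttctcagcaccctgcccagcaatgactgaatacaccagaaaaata
Slc7a11: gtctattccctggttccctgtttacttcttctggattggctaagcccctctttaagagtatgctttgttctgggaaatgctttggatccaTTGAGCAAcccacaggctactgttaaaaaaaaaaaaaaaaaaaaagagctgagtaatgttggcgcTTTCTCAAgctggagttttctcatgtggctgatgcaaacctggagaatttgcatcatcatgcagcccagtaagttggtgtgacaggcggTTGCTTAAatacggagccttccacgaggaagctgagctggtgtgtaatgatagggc
Il1rn: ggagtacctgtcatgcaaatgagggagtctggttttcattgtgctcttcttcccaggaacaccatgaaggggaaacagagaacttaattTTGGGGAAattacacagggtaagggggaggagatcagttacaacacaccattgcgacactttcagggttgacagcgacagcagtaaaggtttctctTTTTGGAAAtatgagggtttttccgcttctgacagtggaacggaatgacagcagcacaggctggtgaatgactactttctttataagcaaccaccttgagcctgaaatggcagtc
The Chil3 window held 3 matches, Stfa2l1 1, Slc7a11 3 and Il1rn 3. Promoter windows were found for 18 of the 25 called genes, 21 windows in all, and 12 of those held the motif, as did 40.7% of all 32851 windows. A match to the AP-1 motif TGANTCA stood in 3 of the 21 and in 7.81% of all windows. The NF-kB motif (GGGA and TTTCC with any base between) and the interferon-stimulated response element (GAAA, any bases at the next 2 positions, GAAA) stood in 0 of the 21 and in 0.411% and 3.44% of all windows. All motifs were searched on both strands. A match describes letters and not a bound site.

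Cxcl9, the interferon-induced ligand of CXCR3, and MHC class II genes were called as higher, with large shares of the counts in single cells. Cxcl9 had 3, 0, 5 and 117 UMIs in Ctrl 1, Ctrl 2, Reg1-MO 1 and Reg1-MO 2, and 1 cell of Reg1-MO 2 gave 108 of its 117. Cd74, the invariant chain of MHC class II, was at 103, 49.6, 580 and 470 CPM (log2 fold change 2.80 ± 0.30; adjusted p 0.00437). One cell gave 91 of its 171 UMIs in Reg1-MO 1, and 1 cell gave 257 of its 396 in Reg1-MO 2. For H2-Aa and H2-Eb1, 1 cell gave 91 of 129 and 47 of 100 UMIs in Reg1-MO 2, and 1 cell gave 25 of 58 and 11 of 34 in Reg1-MO 1. Cd74 UMIs were nonetheless found in 48 of the 83 members of Reg1-MO 1 and 51 of the 201 of Reg1-MO 2. The log2 fold change of H2-Eb1 (2.83) was 4.08 without Ctrl 1 and 2.00 without Ctrl 2, that of H2-Aa (2.54) was 3.19 without Ctrl 1, and that of Cxcl9 (6.82) was 9.82 without Ctrl 1 (when the control group has no UMI and the value depends on the prior count), 5.45 without Ctrl 2 and 7.45 without Reg1-MO 1. Without the cells marked as doublets the call was lost for Cxcl9 (3.93, adjusted p 0.116) and H2-Aa (1.41, adjusted p 0.18). It was kept for Cd74 (1.69) and H2-Eb1 (2.32). H2-Aa was also lost with S100a8 and S100a9 at 20% (adjusted p 0.223), and Cxcl9 with DESeq2 (adjusted p 0.23). Cd74 was found in 11.4%, 5.66%, 28.2% and 8.67% of thinned members and in 17.4%, 12.5%, 36.4% and 16.9% of T-marked cells, which were higher in every library. Of 6 MHC class II genes tested, 6 were above zero and 3 were called, with a median log2 fold change of 2.57. Over all genes tested, 49.1% were above zero and 0.41% were called. When members with 10 or more UMIs of other cell types' markers or MHC class II were left out (79 of 322, 102 of 520, 31 of 83 and 28 of 201 cells), the 3 calls were lost and the median was 0.97. The filter used the MHC class II genes themselves, so a fall in them was partly built in and is no test of them. In that set 16 genes were called, of which 13 were among the 25, namely Chil3, F13a1, Pik3ip1, Prnp, Rbm3, Slc7a11, Il1rn, Trps1, Ier3, Creg1, Basp1, St8sia4 and Gm34084. Ighm, the constant segment of immunoglobulin M, had 36, 57, 23 and 52 UMIs. Its log2 fold change was 1.61 in all members and 1.78 in that set, where it was not called (adjusted p 0.068).

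Interferon-inducible genes lay mostly above zero without any call for the type I list. Of 20 type I interferon-induced genes tested, 19 were above zero, 0 were called and 12 did not overlap with the treated libraries higher, beside the 20.2% of all genes tested. The median log2 fold change was 1.28. Ifitm3, an antiviral membrane protein, was at 1406, 912, 1400.2 and 2443 CPM, and Slfn4 at 135, 83.2, 149 and 327 CPM. Isg15, a ubiquitin-like modifier, was at 36.7, 13.2, 30.5 and 127 CPM and overlapped between groups. Ctrl 2 was the lowest and Reg1-MO 2 the highest in most of these genes: the median was 0.74 without Ctrl 2 and 0.67 without Reg1-MO 2. Thinned members with an Isg15 UMI were 3.80%, 1.37%, 2.56% and 5.61%, at or below the T-marked cells (5.13%, 2.36%, 6.10% and 8.12%). Over all genes tested, 49.1% were above zero and 0.41% were called. With Cxcl9 as the 1 call, all 14 tested genes of the interferon-gamma list were above zero (median 0.67). Irf1, the transcription factor at the head of that response, was at 162, 99.9, 298 and 189 CPM (adjusted p 0.282). The median was 0.19 without Ctrl 2. MHC class I and peptide-loading genes were above zero in 10 of 10, with a median of 0.27 and 0 calls. H2-D1, a class I heavy chain, was at 2253, 1965, 2533 and 2638 CPM and B2m, its light chain, at 550, 509, 898 and 655 CPM.

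Genes of the NF-kB feedback list, inhibitors and subunits that NF-kB itself induces, were above zero in 12 of 14, with 0 called and a median of 0.30. Of them 11 did not overlap with the treated libraries higher, beside the 20.2% of all genes tested. Nfkbia was at 187, 213, 373 and 307 CPM (log2 fold change 0.75 ± 0.18, adjusted p 0.132). Nfkbiz was at 276, 386, 383 and 319 CPM and overlapped. Tlr2, a sensor of bacterial lipoproteins, was at 113, 118, 183 and 205 CPM (adjusted p 0.129). It was 1 of 14 tested pathogen and Fc receptor genes, of which 12 were above zero and 0 were called. Ptgs2, the inducible cyclooxygenase, was at 116, 99.5, 193 and 257 CPM and just missed the threshold (log2 fold change 1.11 ± 0.20, adjusted p 0.0516).

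**Figure D4:**
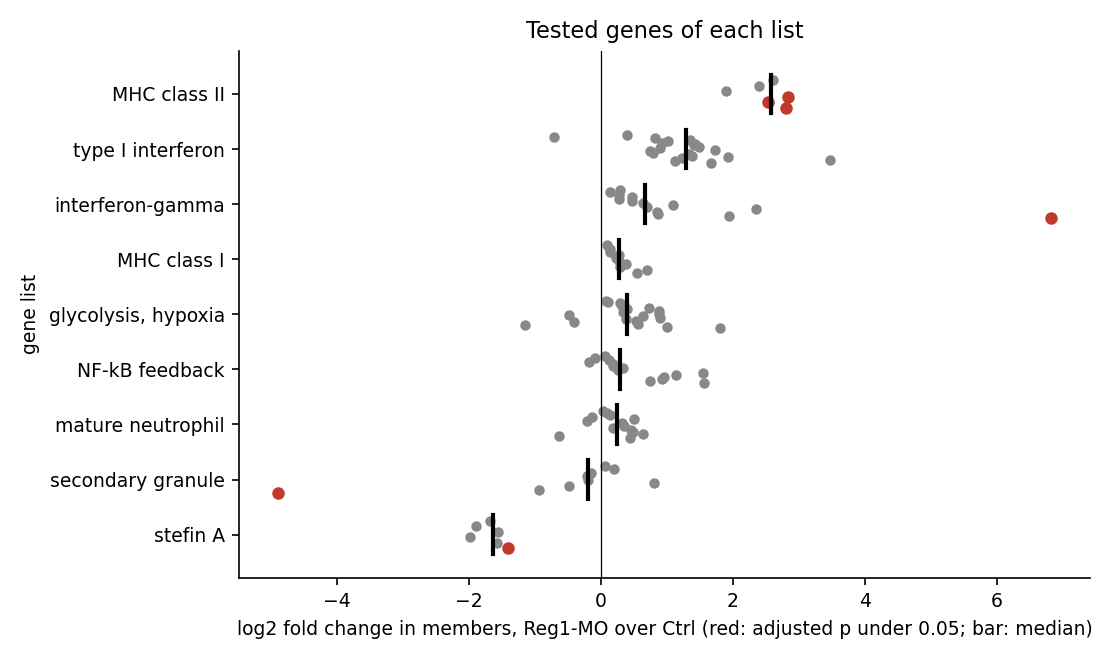
Log2 fold change in members, Reg1-MO over Ctrl, for every tested gene of 9 lists; red points passed an adjusted p of 0.05 and black bars are medians. The stefin A genes lie below zero (median -1.63) and the type I interferon genes above (median 1.28), with 1 and 0 calls. The mature neutrophil and secondary granule lists include genes that the rule used, whose values are a description only.

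Genes that mark maturity gave no call. Of 14 mature neutrophil genes, 11 were above zero and 0 were called, with a median log2 fold change of 0.25, which was -0.01 without Reg1-MO 2. The list includes S100a8 and S100a9, for which the rule set a lower limit, so their direction is a description only. Mmp8 was at 4219.9, 5302, 3018 and 3135 CPM (log2 fold change -0.63 ± 0.15, adjusted p 0.119), and Mmp9, a gelatinase, at 1472, 1460.1, 2011 and 2101 CPM (0.49 ± 0.14, adjusted p 0.207). Neither gene overlapped between the groups, as was so for 41.7% of all genes tested, and neither was called. Cxcr2 was at 642, 761, 665 and 820 CPM and overlapped, as did Cxcr4, the receptor linked to ageing and retention of neutrophils, at 109.5, 176, 136 and 114 CPM. Among 20 receptors for migration and growth factors 11 were above zero and 9 below, with 0 calls and a median of 0.04. The granulocyte colony-stimulating factor receptor Csf3r was at 725, 716, 820 and 1146 CPM (adjusted p 0.38).

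Granule, oxidase, glycolysis and survival genes gave 1 call. Of 9 tested secondary granule genes, 3 were above zero and Chil3, which was placed in that list, was the 1 call. The list includes Ltf, Camp and Ngp, which the rule capped, so their directions are a description only. Lcn2, the siderophore-binding granule protein, was at 7012, 6738, 5615 and 6789 CPM and overlapped between groups, and Hp was at 2720.2, 2769, 1963 and 2766 CPM. None of 5 tertiary granule genes and none of 6 subunits of the NADPH oxidase was called, with medians of 0.03 and -0.03. Cybb, the catalytic oxidase subunit, was at 156, 231, 244 and 282 CPM (adjusted p 0.468). Glycolysis and hypoxia genes lay above zero in 17 of 20 with 0 calls and a median of 0.39. This again rested on Reg1-MO 2, without which the median was -0.10. Gapdh was at 1381, 1108, 1241 and 1843 CPM. Of 13 survival and apoptosis genes, 7 were above zero with 0 calls, and Mcl1, on which neutrophil survival depends, was at 1215, 1256, 1509 and 1499 CPM.

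Zc3h12a, on chromosome 4 from 125118423 to 125127840, encodes Regnase-1. It was at 45.6 and 41.2 CPM in the controls and 57.6 and 58.1 CPM in the treated libraries. The treated libraries were slightly higher, by 0.42 ± 0.25 on the log2 scale (adjusted p 0.565), which was not called. A UMI was found in 4.11%, 4.69%, 7.69% and 6.63% of thinned members. An oligomer that acts on translation or on RNA turnover need not change this count in a known direction, so the value does not check the labels. Of 14 transcripts listed as targets of Regnase-1, 8 could be tested, 5 were above zero and 0 were called, with a median of 0.10. Lcn2, Nfkbiz and Rel, at 67.7, 77.9, 91.5 and 78.3 CPM, were among them.

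The genes of the rule are given as a description. Chemokine UMIs remained in the members up to the limit, with medians of 3, 2, 3 and 3 UMIs per cell and no such UMI in 18.3%, 23.1%, 20.5% and 21.4% of members. Nearly all were Cxcl2, at 637, 542, 949 and 782 CPM, with Ccl3 at 15.8, 18.5, 23.7 and 14.2 CPM and Ccl4 at 27.2, 33.3, 57.6 and 51.0 CPM. S100a8 and S100a9 together held a median of 20.7%, 20.99%, 24.1% and 23.7% of a member's UMIs. The residual secondary granule UMIs had medians of 0.0908%, 0.186%, 0.0637% and 0.0446%, with Ngp the most abundant at 2426, 3059, 1973 and 1933 CPM. Camp was at 270, 256, 359 and 260 CPM and Ltf at 75.3, 54.9, 146 and 92.5 CPM. Elane, Mpo, Prtn3 and Ctsg were each at 16.3 CPM or less before scaling.

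The changes in members were set beside those in the chemokine-high cells of the same libraries. The 2 fits share libraries but no cells. In the chemokine-high cells 0 of 7203 genes (0.0%) were called by edgeR, with 669 at an unadjusted p under 0.05 and 33 called by DESeq2. A test of the difference in treatment effect between the classes, with the library as a block, called 0 of 7132 genes (0.0%), with 404 at an unadjusted p under 0.05 and 0 called by DESeq2. No change can therefore be called particular to the members. Without Reg1-MO 1 or Reg1-MO 2 that test called 78 and 121 genes, where 1 library stands for the treated group.

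Single genes showed close and distant pairs of values. Prnp had a log2 fold change of -3.20 ± 0.35 in members and -2.42 ± 0.33 in chemokine-high cells, Pik3ip1 -4.15 ± 0.48 and -3.49 ± 0.38, and Crispld2 -1.06 ± 0.18 and -1.11 ± 0.19. Il1rn stood at 1.46 ± 0.21 and 1.57 ± 0.32. Chil3 had a log2 fold change of -1.24 ± 0.97 in chemokine-high cells, where Reg1-MO 1 was at 2617 CPM. After thinning, however, Chil3 was found in 61.2%, 92.7%, 15.3% and 5.58% of chemokine-high cells, so its spread over cells was like that in members. Slc7a11 had a log2 fold change of 1.41 ± 0.20 in members and 0.76 ± 0.23 in chemokine-high cells, and the difference had an adjusted p of 0.704. In granule-rich cells edgeR called 90 of 10858 tested genes (0.829%), 66 higher and 24 lower. Chil3 (-1.13, adjusted p 0.0404), Prnp (-1.75, adjusted p 0.0307), Crispld2 (-1.11, adjusted p 0.0192) and Il1rn (1.45, adjusted p 0.0229) were called there in the same directions. Slc7a11 was not (0.48, adjusted p 0.216). Not all genes called in members are given for this class.

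**Figure D5:**
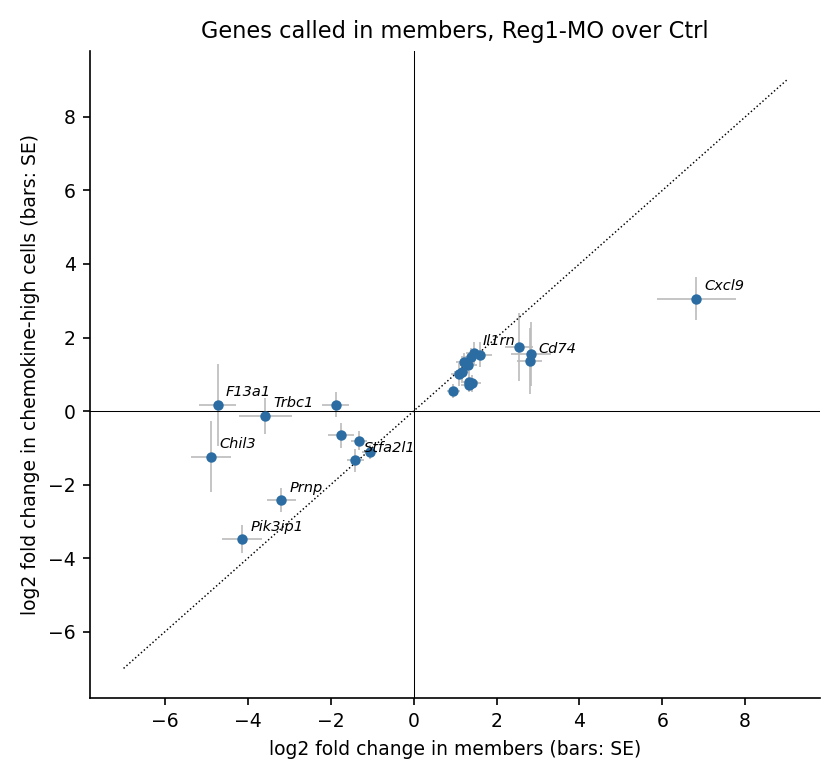
Log2 fold change, Reg1-MO over Ctrl, of the genes called in members, in members (horizontal axis) and in chemokine-high cells of the same libraries (vertical axis), with SE bars; the dotted line marks equal values. Prnp (-3.20 and -2.42) and Il1rn (1.46 and 1.57) lie near the line, and Chil3 (-4.89 and -1.24) and F13a1 (-4.73 and 0.17) lie far from it.

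Transcripts of other cell types were present in the members and moved between libraries. In Ctrl 1, Ctrl 2, Reg1-MO 1 and Reg1-MO 2, 24.5%, 19.6%, 37.3% and 13.9% of members held 10 or more UMIs of their markers or MHC class II. The summed level of 10 macrophage markers was 372, 379, 652 and 375 CPM before scaling. Of the 7 tested, 6 were above zero and 0 were called, with C1qc at 19.0, 12.5, 61.0 and 46.3 CPM (adjusted p 0.0566). The median log2 fold change of the 7 was 1.39. Of them 6 did not overlap with the treated libraries higher, beside the 20.2% of all genes tested. The 8 T cell markers summed to 336, 135, 209 and 96.2 CPM, with 7 below zero and 0 called. The 5 monocyte markers summed to 773, 722, 773 and 708 CPM, mostly Ly6c2, and F13a1 was the 1 call. Microglia markers summed to 56.6, 54.9, 124 and 47.6 CPM, and natural killer markers to 38.6, 24.3, 16.3 and 8.85 CPM. Defining markers of mast cells, basophils, eosinophils and erythroid cells gave 8 UMIs or fewer per library, and dendritic cell markers 20 or fewer. The part of these transcripts in the calls was not tested. The set without marker-positive cells was chosen by these same markers, so its values for them are a description only.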

How the data were processed

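Cells were profiled with the 10x Genomics Chromium 3' kit in 4 libraries. The deposited matrices hold raw UMI counts of 32285 genes per barcode. Per the file headers, Cell Ranger 5.0.1 wrote them. The build was mm10 and Seurat 4.0 was used in a role not stated, per the submitters' processing notes. The sources used here state no cell calling settings, annotation release or strand use. The members, the gene lists and the tests were chosen with earlier results of these data known.

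Cells were classified from raw UMIs by the stated limits. Scrublet (scanpy 1.11.5, Python 3.11.15) marked the highest scores, up to 0.8% per 1000 barcodes, and marked cells were left out only in an alternative. Counts were summed per library and class, genes passing filterByExpr (minimum count 10) were scaled by TMM, and Reg1-MO was tested over Ctrl with edgeR 4.0.16 (limma 3.58.1, R 4.3.3), with Benjamini-Hochberg adjustment over all tested genes and DESeq2 1.42.0 as an alternative. An SE is the log2 fold change over the root of its F statistic. The procedure was tested on simulated data. For shares an exact permutation test over libraries (two-sided) was used. Thinning drew 1000 UMIs per cell. The median depth of 3529 to 4650.5 UMIs per member limits what is detectable in one cell, and summed counts in Reg1-MO 1 are the smallest (306693 UMIs against 904228 to 2550064).

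Genes named were up to 12 called genes each way, ordered by fold change, that reached 20 CPM on average and whose groups did not overlap, without predicted, mitochondrial, ribosomal, hemoglobin, receptor segment and rule genes. For each list they were up to 4 called members, or the 2 with the highest mean. Zc3h12a, the markers, the rule genes, and genes that mark or vary among members by fixed ratios were added. Genes named outside this rule, among them further list members shown for their roles, were chosen after their values were seen. Gene positions are from GENCODE M21 (GRCm38), matched by identifier. Same-numbered libraries did not deviate together (correlation 0.0961 in members), and nothing in the labels pairs them. Alternatives changed normalisation, filters, limits, doublets and libraries. The values of 1 gene are not reported here.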

Additional observations from a re-analysis of the deposited data

How the results depend on the processing

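The difference in the share of members among kept cells (-3.49 percentage points) stayed negative under every alternative run, but the groups overlapped with S100 at 20% (-1.69) and without marker-positive members (-2.74). It ranged from -5.42 to -1.56 when a library was left out. The share within S100a8/S100a9-high cells (difference 0.0702 points) had no stable sign. It was -0.768 with S100a8 and S100a9 at 5%, -1.61 with under 5 chemokine UMIs, -1.69 with chemokines under 0.2% of UMIs, -0.314 with at least 1000 UMIs, -0.697 without marker-positive members (an alternative chosen after seeing the data), and -3.01 to 3.15 with a library left out. The 25 calls in members became 0 (chemokines under 0.2%), 15 (under 5 chemokine UMIs), 39 (doublets removed), 186 (no filter), 63 (S100 at 20%), 1 (S100 at 5%), 16 (without marker-positive members) and 38 to 346 with a library left out. The replicate block gave 106 calls, which held all 25, and a crossed replicate block, chosen after seeing the data, 108. Scaling by RLE and a minimum of 1000 UMIs per cell also kept all 25. In chemokine-high cells the calls went from 0 to 33 with DESeq2, 2 with the replicate block, 2 with the crossed replicate block and 1 to 87 with a library left out. The interaction went from 0 to 37 without a filter and 0 to 121 with a library left out. No called gene changed direction. Medians of lists reversed for mature neutrophil genes (-0.0123) and glycolysis (-0.0990) without Reg1-MO 2, and for T cell markers with chemokines under 0.2% (0.0575) and without Ctrl 1 (0.161). With a library left out they ranged up to 0.409 and 0.647 for the first pair of lists, and down to -1.29 for T cell markers. The causes were not tested. With a library left out, the lone library is assumed to vary like the other group. Reg1-MO 1, with 83 members, limits what can be detected.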

Other observations

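A pair of genes outside the rule for named genes lay just past the threshold and are named after their values were seen. Klhl6, a Kelch-like adaptor protein, was at 127, 350.0, 50.9 and 26.1 CPM in the members of Ctrl 1, Ctrl 2, Reg1-MO 1 and Reg1-MO 2 (log2 fold change -2.83 ± 0.52, adjusted p 0.0516). Prok2, a secreted prokineticin made by neutrophils, was at 15.2, 10.2, 23.7 and 159 CPM (log2 fold change 3.10 ± 0.57, adjusted p 0.0516), and Reg1-MO 2 alone was high. Neither was called.

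Of 9 genes induced by glucocorticoids, 5 were below zero and 0 were called. Klf9, a glucocorticoid-induced transcription factor, was at 36.7, 54.9, 10.2 and 17.8 CPM (adjusted p 0.133), Zbtb16 at 13.9, 46.5, 10.2 and 4.75 CPM (adjusted p 0.279), and Fkbp5, a chaperone of the receptor, at 187, 257, 234 and 70.0 CPM (adjusted p 0.531). Both treated libraries were lower than both controls for Klf9 and Zbtb16, as for 21.5% of all genes tested, while Fkbp5 overlapped. Casp4, the sensor of intracellular lipopolysaccharide, was at 43.0, 41.2, 71.2 and 85.4 CPM (adjusted p 0.156), with Nlrp3 at 78.5, 111, 146 and 149 CPM (adjusted p 0.325). For both genes both treated libraries were above both controls without a call, as for 20.2% of all genes tested. Of the 9 inflammasome genes, 5 were above zero and 4 below, with 0 called and a median log2 fold change of 0.14. In that list 4 genes did not overlap with the treated libraries higher and 2 with them lower.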
